A study of Mus musculus with 6 samples.

Results

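The proteasome genes described here are the mouse genes whose symbols begin with Psma, Psmb, Psmc, Psmd, Psme, Psmf or Psmg followed by a number, without the interferon-inducible catalytic subunits Psmb8, Psmb9 and Psmb10. The name rule found 46 genes among the 18193 genes measured. Within the rule, measured values served only to select 1 probe set per gene, the one with the highest mean signal over 6 arrays. The rule itself was chosen with earlier results of these data known. By textbook role, 16 belong to the core particle, 17 to the regulatory cap, 7 assist assembly, and 4 are activators or regulators that bind the core. Psmc3ip, a factor of homologous pairing in meiosis, and Psme3ip1, a binding partner of Psme3, match by name only. Counts over the 46 genes include them, and counts by role do not.

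The RNA came from mouse embryonic stem cells of the Oct4-Gip line, which carries a reporter driven by Oct4 regulatory sequences, grown in serum with the self-renewal cytokine LIF. In the knockdown group, 60000 cells were reverse transfected with 800 ng of an esiRNA, an enzymatically cut pool of short interfering RNAs, against the long noncoding RNA Panct1. Controls received an esiRNA against Luciferase, which mouse cells do not encode, and both groups (n = 3 arrays each) were sampled after 72 h. Every level is a log2 RMA signal from an Affymetrix array, and every difference is Panct1 knockdown minus Luciferase control.

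The proteasome degrades proteins that carry ubiquitin chains. Its core is a barrel of stacked alpha and beta rings with the proteolytic sites inside, and its cap recognises, deubiquitinates, unfolds and feeds in the substrate. Dividing stem cells need it for the turnover of cell-cycle and signalling proteins, and its subunit genes can be induced together by Nfe2l1 when proteolysis is impaired. Interferon signalling is known to exchange the constitutive catalytic subunits for Psmb8, Psmb9 and Psmb10 and to raise the activator genes Psme1 and Psme2.

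Promoters of these genes were searched because both kinds of control act through known motifs. RefSeq promoters of assembly GRCm38.p6, running from 250 bases before to 50 after the annotated start, were held for 38 of the 46 genes, 41 promoters in all. None was held for Psma8, Psmb1, Psmb2, Psmb7, Psmc3, Psmd3, Psmd7 and Psmg2. Psma8, Psmb7 and Psmd7, the proteasome genes that fell, were thus not searched. The core of the antioxidant response element bound by Nfe2l1 and Nfe2l2, searched as TGACNNNGC on both strands, occurred for 6 genes, namely Psmb5, Psmb6, Psmc6, Psmd9, Psmd12 and Psme4. That is 14.6% of the 41 promoters, against 12.4% of all 32851 promoters. The core of the interferon-stimulated response element, searched as GAAA followed after any 2 bases by GAAA on both strands, occurred for 5 genes, Psmb3, Psmd4, Psmd9, Psme1 and Psmg4, or 12.2% of the promoters against 3.44% of all. CCAAT, the motif of NF-Y, was present in 36.6% of these promoters and 37.4% of all, and the STAT motif TTCNNNGAA in 4.88% of them (Psmd2 and Psmg1) and 8.3% of all. No motif match overlapped another in the promoters printed. A match describes the letters in this window and not a site in use.

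Printed below are the promoters of Psme1, which rose, and of Psmb3, a structural core gene with the same interferon motif whose level hardly moved, with that motif in capitals as its reverse complement. They are followed by the promoters of the catalytic subunit genes Psmb5 and Psmb6, with the antioxidant motif in capitals. All are written 5′ to 3′ on the strand of the gene. They lie at chr14:55578244-55578543 (plus strand), chr11:97703184-97703483 (plus), chr14:54617946-54618245 (minus) and chr11:70525107-70525406 (plus) in that order.
Psme1: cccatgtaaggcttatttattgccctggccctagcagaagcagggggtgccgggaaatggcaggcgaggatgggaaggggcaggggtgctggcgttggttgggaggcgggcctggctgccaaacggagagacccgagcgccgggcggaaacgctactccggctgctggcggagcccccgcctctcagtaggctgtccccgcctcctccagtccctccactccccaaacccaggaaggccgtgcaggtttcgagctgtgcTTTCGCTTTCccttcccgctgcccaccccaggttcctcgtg
Psmb3: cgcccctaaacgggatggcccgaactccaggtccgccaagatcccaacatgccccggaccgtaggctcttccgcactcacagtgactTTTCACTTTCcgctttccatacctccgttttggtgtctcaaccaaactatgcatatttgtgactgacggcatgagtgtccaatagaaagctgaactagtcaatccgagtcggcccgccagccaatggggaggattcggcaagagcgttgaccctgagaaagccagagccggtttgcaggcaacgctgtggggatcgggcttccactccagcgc
Psmb5: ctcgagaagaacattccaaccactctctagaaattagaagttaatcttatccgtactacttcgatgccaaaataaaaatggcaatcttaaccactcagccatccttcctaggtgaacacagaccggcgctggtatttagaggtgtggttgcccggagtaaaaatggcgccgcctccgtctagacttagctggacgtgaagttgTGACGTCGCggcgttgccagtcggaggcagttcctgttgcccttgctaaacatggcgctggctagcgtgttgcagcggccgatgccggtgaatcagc
Psmb6: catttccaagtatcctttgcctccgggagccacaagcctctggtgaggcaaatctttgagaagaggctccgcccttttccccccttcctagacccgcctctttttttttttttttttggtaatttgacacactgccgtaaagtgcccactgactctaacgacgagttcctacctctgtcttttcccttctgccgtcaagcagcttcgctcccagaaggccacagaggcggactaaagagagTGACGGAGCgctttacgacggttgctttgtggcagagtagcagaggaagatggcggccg

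Most genes of the core and cap had nearly the same signal in both groups. Of the 46 genes, 2 rose and 4 fell at an adjusted p under 0.05 (limma, Benjamini-Hochberg over all genes), which is 13.0%, where 24.2% of all genes passed, 12.9% upward and 11.3% downward. One of the falls was Psme3ip1, and the 44 proteasome genes alone gave 2 rises and 3 falls (11.4%). The median absolute difference of the 31 core and cap genes other than Psma8 and Psmb11, which are known from germ cells and thymus, was 0.03 on the log2 scale, against 0.12 over all genes. Their differences ran from -0.39 to 0.13, with a median of -0.01 against -0.02 over all genes, and 29 of them did not pass, none of these differing by more than 0.15.

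A missed threshold does not show equality, so the intervals were read as well, a count chosen after the values were seen. For 27 of the 31 genes (87.1%) the 95% interval of the difference lay inside a 1.2-fold change in either direction, where 35.5% of all genes had such an interval. The 6886 genes brighter than the upper quartile of every array had it in 33.9% of cases, and 33.3% of them passed the test. Their mean signals began at 8.27, with a median of 9.93 against 12.82 for the 31 genes, so brightness was not matched. The part of brightness in the share of narrow intervals was not tested. The mean signals of the 31 genes were all high, from 11.24 to 13.56, and the SDs within a group ran from 0.006 to 0.14. The labels do not say that replicates were separate cultures, and the p-values and intervals may rest on technical spread alone. In bulk RNA of this kind, fewer cells of a type and less RNA per cell cannot be told apart.

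**Figure D1:**
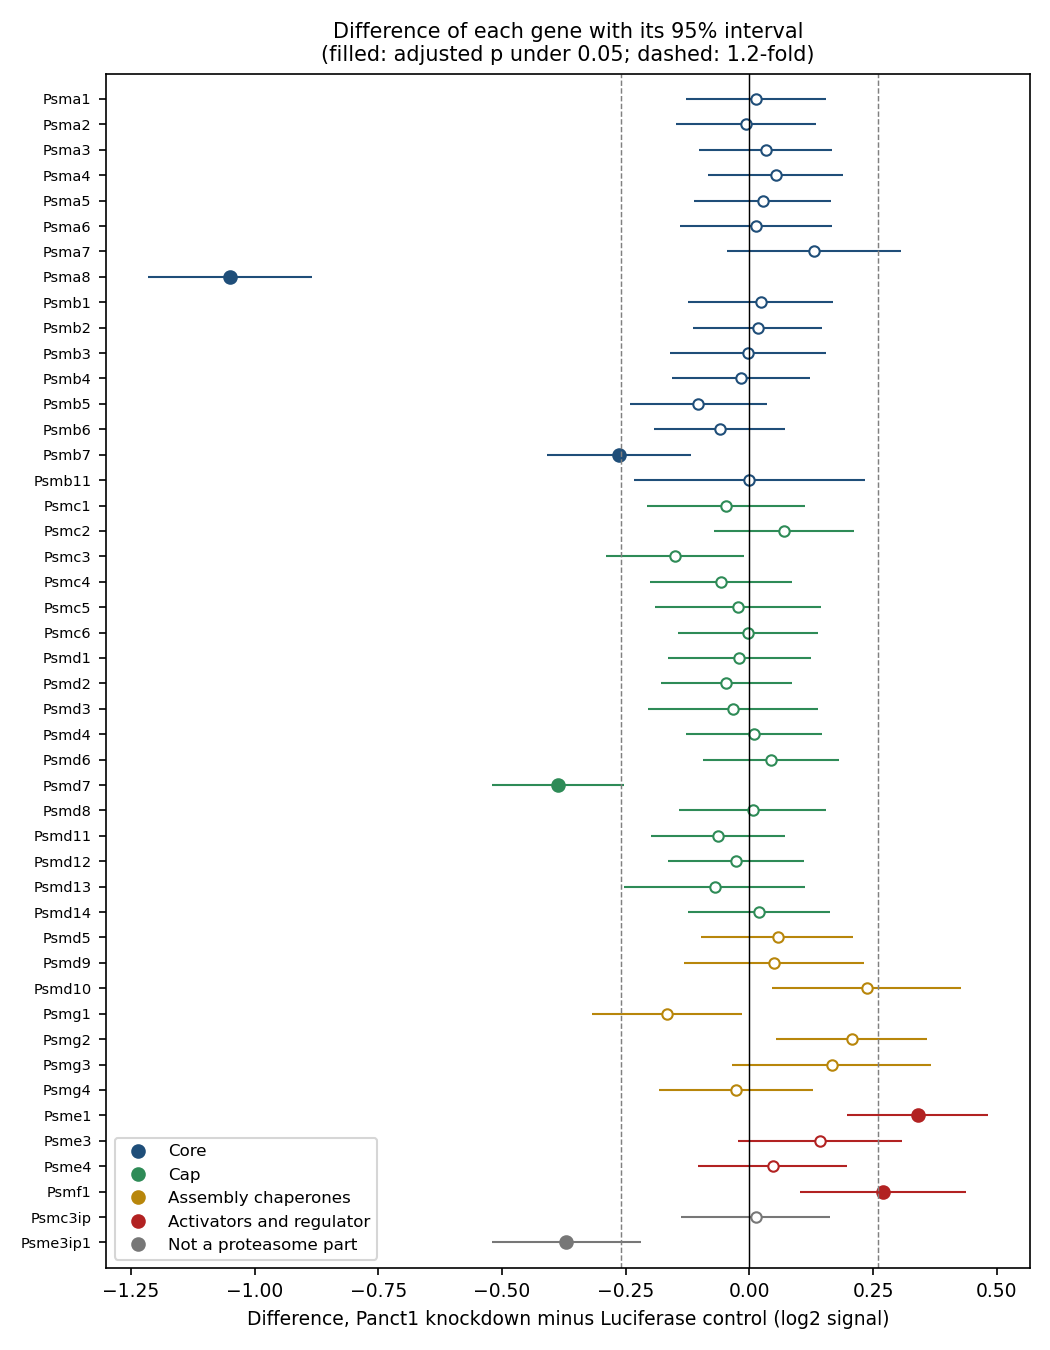
Log2 difference, Panct1 knockdown minus Luciferase control, with its 95% interval for each of the 46 genes, grouped by role; dashed lines mark a 1.2-fold change, and filled points passed the test. Psma8 at -1.05 lies far outside the dashed lines, while 33 intervals lie wholly between them.

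Facts of the whole series bear on how these values are read. The correlation over probe sets was 0.997 to 0.998 within a group and 0.991 to 0.993 between groups. Depletion of Panct1 itself was not assessed here, since none of the named probe sets carries its name. The cells had the signals of embryonic stem cells in both groups, with a mean over 10 markers of 12.65 to 12.70 in knockdown and 12.77 to 12.88 in control arrays, and 4 of the 10, among them Pou5f1, fell. For comparison with each marker list, 24.2% of all genes passed, 12.9% upward and 11.3% downward. Trophectoderm markers moved with the group. Of 15, 11 rose and 0 fell, their mean lay at 8.31 to 8.38 in knockdown and 7.34 to 7.37 in control arrays, and 1 stayed below the lower quartile of every array. Of 16 primitive endoderm markers 4 rose and 4 fell, with means of 7.08 to 7.23 in knockdown and 7.14 to 7.18 in control arrays. Of 11 fibroblast markers 3 rose and 0 fell, with means of 5.69 to 5.73 in knockdown and 5.55 to 5.65 in control arrays, 2 of them below the lower quartile everywhere. The part of these markers in the proteasome results was not tested.

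In the core particle, the largest difference was that of Psma8, the alpha subunit that takes the place of Psma7 in male germ cells. Its log2 signal was 7.90, 8.03 and 8.05 in knockdown arrays and 8.95, 9.07 and 9.11 in control arrays. Every knockdown array lay below every control array, as was so for 13 of the 46 genes (28.3%) in one direction or the other and for 38.3% of all genes. Means were 7.99 ± 0.08 in knockdown and 9.04 ± 0.08 in control (SD, n = 3 each), a difference of -1.05 (SE 0.07, 0.483-fold, limma adjusted p = 2.48e-05). The gene had a single probe set with a moderate signal, and it passed in all 17 alternative settings, with differences of -1.1 to -1.0.

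The alpha ring of somatic cells, which gates entry to the barrel, showed no such change. Differences of Psma1, Psma2, Psma3, Psma4, Psma5, Psma6 and Psma7 lay between -0.01 and 0.13, and none of the 7 passed. Psma7, the somatic counterpart of Psma8, had 12.51, 12.51 and 12.56 in knockdown arrays and 12.28, 12.54 and 12.37 in control arrays. One control array reached the knockdown level, and the difference of 0.13 did not pass (limma adjusted p = 0.28, 95% interval -0.05 to 0.31).

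In the beta ring, the structural subunits Psmb1, Psmb2, Psmb3 and Psmb4 differed by -0.02 to 0.02, and the intervals of all 4 lay inside 1.2-fold. Psmb3, whose promoter was printed for its interferon motif, had 13.29, 13.22 and 13.33 in knockdown arrays and 13.28, 13.37 and 13.20 in control arrays, which overlap throughout. Psmb11, a catalytic subunit of thymic cortical epithelium, had 4.61, 4.86 and 5.02 in knockdown and 4.87, 4.88 and 4.74 in control arrays. These values lie close to the lower quartile of the arrays, 4.65 to 4.70, so they bear little on its level.

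All 3 constitutive catalytic subunits were lower on every knockdown array, and 1 of them passed the test. Among genes brighter than the upper quartile of every array, 52.6% had groups that did not overlap in either direction and 33.3% passed. Psmb7, which carries the trypsin-like site, had 11.64, 11.64 and 11.76 in knockdown arrays and 11.95, 11.91 and 11.97 in control arrays. It fell by 0.26 (SE 0.06, 0.833-fold, limma adjusted p = 0.0167). The call was lost without control replicate 1 (adjusted p = 0.0586), control replicate 3 (0.0529) or knockdown replicate 2 (0.0723), and against a 1.2-fold minimum.

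Psmb5, the chymotrypsin-like subunit, had 13.19, 13.15 and 13.19 in knockdown arrays and 13.26, 13.34 and 13.24 in control arrays. The difference was -0.10 with a 95% interval of -0.24 to 0.04 (limma adjusted p = 0.276). Psmb6, the caspase-like subunit, had 13.44, 13.42 and 13.44 in knockdown arrays and 13.49, 13.53 and 13.46 in control arrays. Groups did not overlap for either gene, yet the difference of -0.06 for Psmb6 also missed the threshold (95% interval -0.19 to 0.07, limma adjusted p = 0.527).

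The interferon-inducible counterparts moved differently among themselves. Psmb8, the counterpart of Psmb5, had 9.18, 9.41 and 9.46 in knockdown and 7.89, 8.06 and 7.92 in control arrays, and Psmb9, the counterpart of Psmb6, had 8.06, 8.27 and 8.55 in knockdown and 7.53, 7.46 and 7.51 in control arrays, differences of 1.39 (limma adjusted p = 1.58e-05) and 0.79 (0.00109). Psmb10, the counterpart of Psmb7, had 11.40, 11.44 and 11.52 in knockdown and 11.59, 11.63 and 11.65 in control arrays, and its difference of -0.17 did not pass (limma adjusted p = 0.0853, and 0.0265 with an intensity trend).

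**Figure D2:**
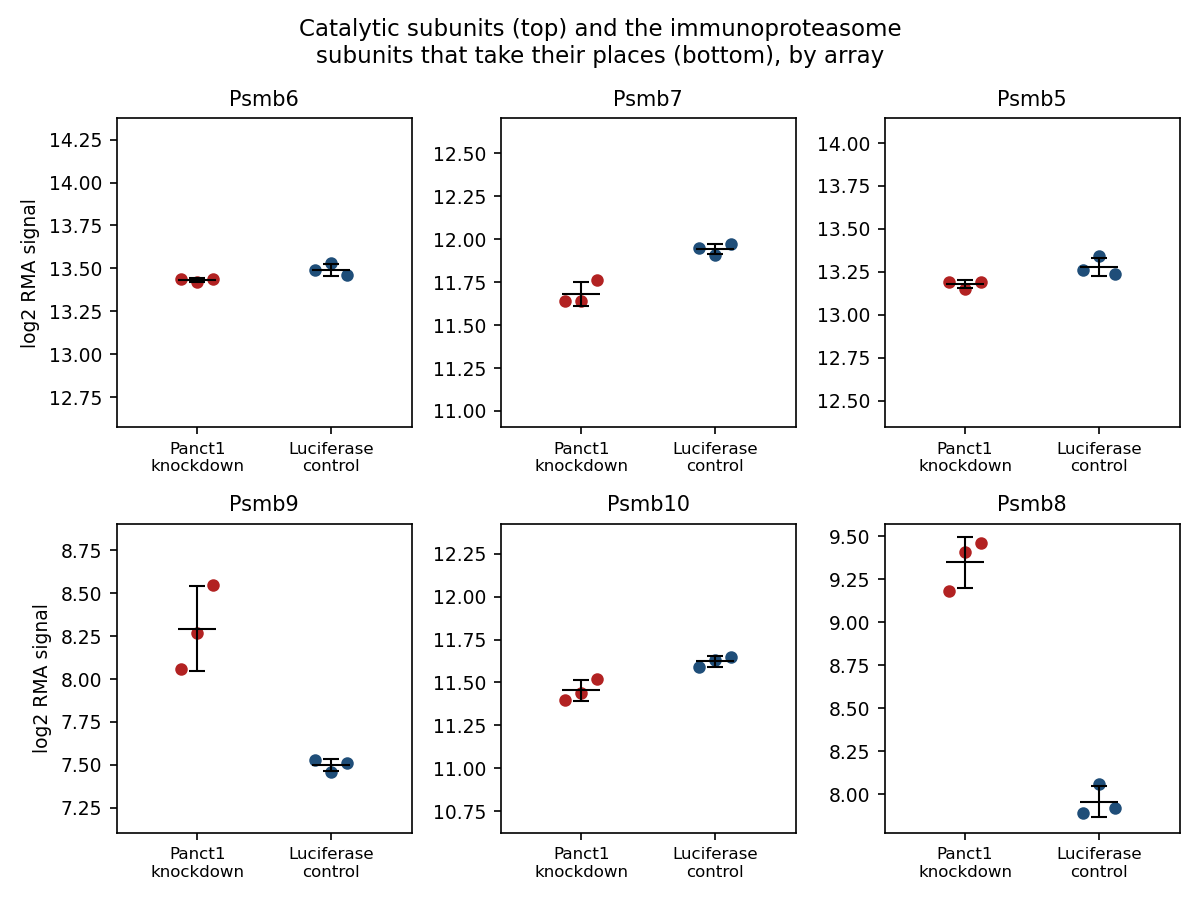
Log2 RMA signal of each constitutive catalytic subunit and its interferon-inducible counterpart on each array, Panct1 knockdown left of Luciferase control, with bars at the group means and the same span of log2 units in every panel. Psmb8 and Psmb9 are higher on all knockdown arrays, while Psmb5, Psmb6, Psmb7 and Psmb10 are lower on all of them by much smaller amounts.

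In the cap, 1 of 17 genes fell and 0 rose (5.88% called, where 24.2% of all genes were). Of the 17 intervals 15 lay inside 1.2-fold (88.2%, against 35.5% of all genes). Psmd7, a lid subunit that pairs with the deubiquitinase Psmd14, had 11.73, 11.67 and 11.72 in knockdown arrays and 12.10, 12.11 and 12.07 in control arrays. The groups were far apart for their spread, and Psmd7 fell by 0.39 (SE 0.06, 0.765-fold, limma adjusted p = 0.00162). The call was lost only against a 1.2-fold minimum. Another of its 3 probe sets also differed by -0.39 without passing (adjusted p = 0.0523 over all probe sets), and the last differed by -0.19.

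Its partner Psmd14, which removes ubiquitin chains before degradation, had 13.13, 13.10 and 13.11 in knockdown arrays and 13.03, 13.17 and 13.08 in control arrays, which overlap. The other lid genes, Psmd3, Psmd6, Psmd8, Psmd11, Psmd12 and Psmd13, differed by -0.07 to 0.04 and did not pass. Over the 8 probe sets of Psmd11 differences ran from -0.17 to 0.19, and none passed. Among its bright sets, those at -0.16 and -0.12 had groups that did not overlap. Thus 1 of 8 lid genes was called (12.5%, where 24.2% of all genes were).

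The base of the cap holds a ring of ATPases that unfold the substrate, and larger subunits that receive ubiquitin. Differences of the 6 ATPase genes Psmc1, Psmc2, Psmc3, Psmc4, Psmc5 and Psmc6 ran from -0.15 to 0.07, and 0 passed, although 1 had an unadjusted p under 0.05. That gene, Psmc3, had 12.30, 12.21 and 12.23 in knockdown arrays and 12.39, 12.44 and 12.36 in control arrays. The groups did not overlap, with a difference of -0.15 (limma adjusted p = 0.119), and the gene passed with array weights (0.0438) and with an intensity trend (0.0247). Over all their probe sets, differences ran from -0.15 to -0.06 for Psmc4 and from -0.29 to -0.003 for Psmc6, and none passed. Psmd4, a ubiquitin receptor, had 12.51, 12.49 and 12.56 in knockdown arrays and 12.50, 12.55 and 12.48 in control arrays. The scaffold subunits Psmd1 and Psmd2 differed as little, by -0.02 and -0.05.

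Activators open the gate of the core without the cap, and here 2 of 4 activator and regulator genes rose, where 12.9% of all genes did, and 1 of these 2 calls, that of Psmf1, was lost in 8 of 17 alternative settings. Psme1, which forms a ring with Psme2 and is induced by interferon, had 12.09, 12.08 and 12.13 in knockdown arrays and 11.74, 11.83 and 11.71 in control arrays. The groups did not overlap, and Psme1 rose by 0.34 (SE 0.06, 1.27-fold, limma adjusted p = 0.00432), a call lost only against a 1.2-fold minimum. Its promoter, printed above, has the interferon motif 9 bases after the annotated start. The other genes with this motif, Psmb3, Psmd4, Psmd9 and Psmg4, differed by -0.003, 0.01, 0.05 and -0.03, and none of them passed. Psme2 had no probe set of its own, but a set annotated to both Psme2b and Psme2 had 12.24, 12.30 and 12.31 in knockdown arrays and 11.79, 11.85 and 11.80 in control arrays. That shared set rose by 0.47 (SE 0.06, 1.39-fold, adjusted p = 0.00158 over all probe sets), and which of the 2 genes it reads is not known.

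Psmf1, which binds the core and inhibits it in vitro, had 9.55, 9.42 and 9.53 in knockdown arrays and 9.20, 9.34 and 9.15 in control arrays. The groups were separate by a narrow margin, with a rise of 0.27 (SE 0.07, 1.21-fold, limma adjusted p = 0.0277). The call rested on 1 of 4 probe sets, the others passing in no case. With the mean of the sets the difference was 0.11 (adjusted p = 0.413), and with the set of largest SD it was -0.01 (0.957). It was also lost against a 1.2-fold minimum, with the replicate number as a term of the fit (0.0729), and without control replicate 1 (0.0931), control replicate 3 (0.0899), knockdown replicate 1 (0.0750) or knockdown replicate 3 (0.0758).

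The remaining activators did not pass. Psme3, a nuclear activator that acts without ubiquitin, had 10.23, 10.24 and 10.30 in knockdown arrays and 10.07, 10.24 and 10.03 in control arrays. One control array reached the knockdown level (difference 0.14, limma adjusted p = 0.204), and its other probe sets differed the opposite way, by -0.26 and -0.22, also without passing. Psme4, an activator known for histone degradation in spermatids, had 12.83, 12.93 and 12.87 in knockdown arrays and 12.86, 12.75 and 12.88 in control arrays, which overlap. Psme3ip1, which by name alone belongs here and encodes the partner of Psme3, had 10.97, 11.09 and 11.12 in knockdown arrays and 11.43, 11.39 and 11.47 in control arrays. It fell by 0.37 (SE 0.07, 0.774-fold, limma adjusted p = 0.00382), a call lost only against a 1.2-fold minimum, while Psmc3ip differed by 0.01.

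**Figure D3:**
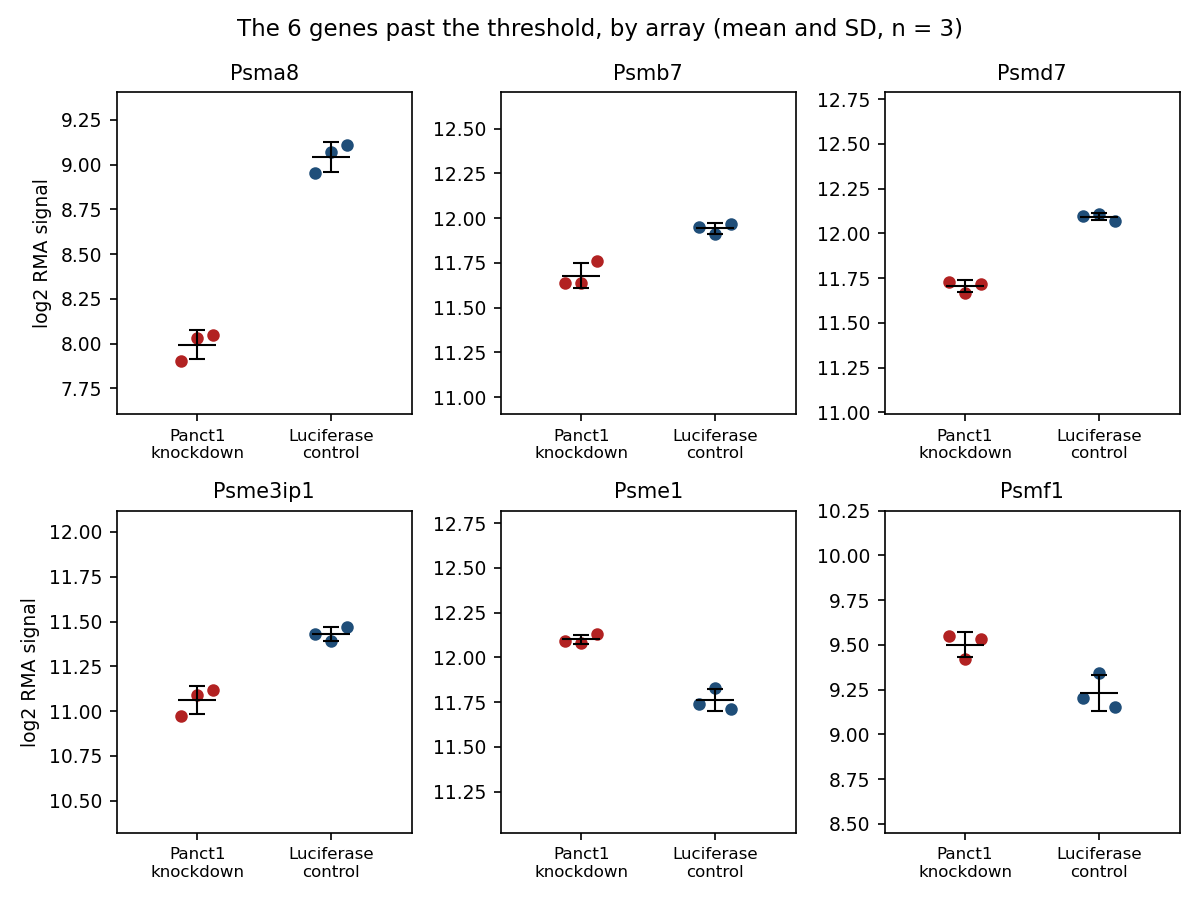
Log2 RMA signal on each array for the 6 genes past the test, Panct1 knockdown left of Luciferase control, with bars at the group means. In every panel the 3 knockdown arrays lie on one side of the 3 control arrays.

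Assembly chaperones, which pair subunits into rings and leave before the particle is finished, gave 0 calls among 7 genes, with 3 at an unadjusted p under 0.05. Over all genes 24.2% passed, and 6379 of 18193 had an unadjusted p under 0.05. Of the 7 intervals 3 lay inside 1.2-fold (42.9%, against 35.5% of all genes), and for the other 4 the interval reached past it. Psmg1 and Psmg2 form 1 chaperone of the alpha ring, yet their differences had opposite signs. Psmg1 had 12.21, 12.21 and 12.31 in knockdown arrays and 12.41, 12.48 and 12.34 in control arrays. Psmg2 had 11.48, 11.58 and 11.64 in knockdown arrays and 11.41, 11.34 and 11.33 in control arrays. Groups did not overlap for either, with a difference of -0.17 for Psmg1 (limma adjusted p = 0.111) and of 0.21 for Psmg2 (0.0546).

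Several assembly chaperone genes crossed the threshold in other settings. Psmg2 passed in 5 of the 17, among them without knockdown replicate 1 (adjusted p = 0.0374), with array weights (0.0262) and with an intensity trend (0.0158). Psmg3, which pairs with Psmg4, differed by 0.17 (limma adjusted p = 0.223) and passed only without knockdown replicate 1 (0.0362), and Psmg4 differed by -0.03. Among the chaperones of the ATPase ring, Psmd10, also known as gankyrin, differed by 0.24 (limma adjusted p = 0.0761) and passed without control replicate 2 (0.0176), with array weights (0.0425) and with an intensity trend (0.0476). Psmg1 passed in the last 2 of these settings as well (0.0418 and 0.0268). Psmd5 and Psmd9, which act on the same ring, differed by 0.06 and 0.05 and did not pass.

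Small differences in the core and cap were shared within an array. Among the 31 core and cap genes, control replicate 2 had the highest signal of its group for 24 (77.4%), against 36.5% of all genes, and knockdown replicate 3 for 20 (64.5%), against 38.3% of all genes. Mean signals of the 31 genes were 12.62, 12.61 and 12.66 in knockdown arrays and 12.65, 12.70 and 12.64 in control arrays, which overlap. Without control replicate 2 the median difference was 0.02, against -0.01 with all arrays. The 31 genes therefore do not vary independently of each other between arrays.

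**Figure D4:**
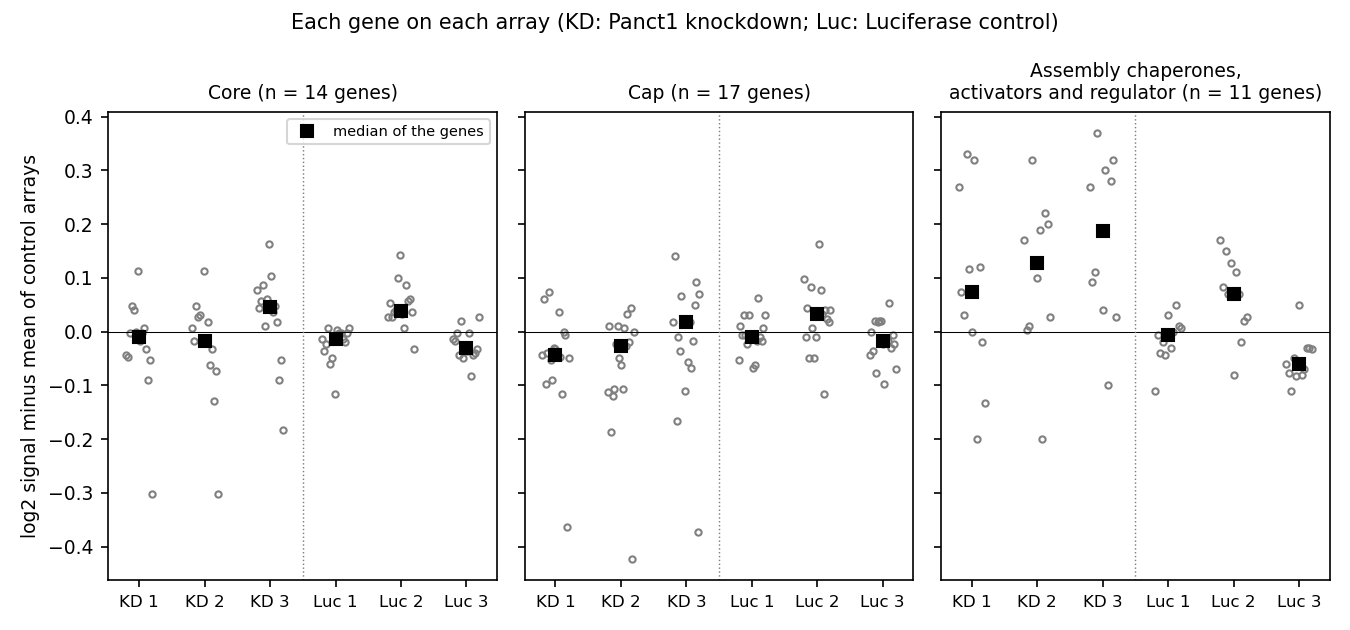
Log2 signal of each gene on each array minus the mean of the 3 Luciferase control arrays, for the core without Psma8 and Psmb11, the cap, and the assembly chaperones with activators and regulator; knockdown (KD) is left of control (Luc), and squares are medians over genes. The core and cap medians of control replicate 2 lie above those of the other control arrays, and those of knockdown replicate 3 above the other knockdown arrays.

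Counted by probe set, the same 6 genes stood out, each by the set that represents it above. The 46 genes had 99 probe sets, up to 8 for 1 gene (Psmd11), and 6 of the 99 passed over all probe sets (6.06%, where 14.6% of all probe sets passed), 2 upward and 4 downward. Of the 26 genes with several sets, 24 had none that passed. Among the 49 sets with a mean signal of at least 11, 36 had an interval inside 1.2-fold. A further 10 sets lay below the lower quartile of the arrays, and a difference there says little of the gene.

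**Figure D5:**
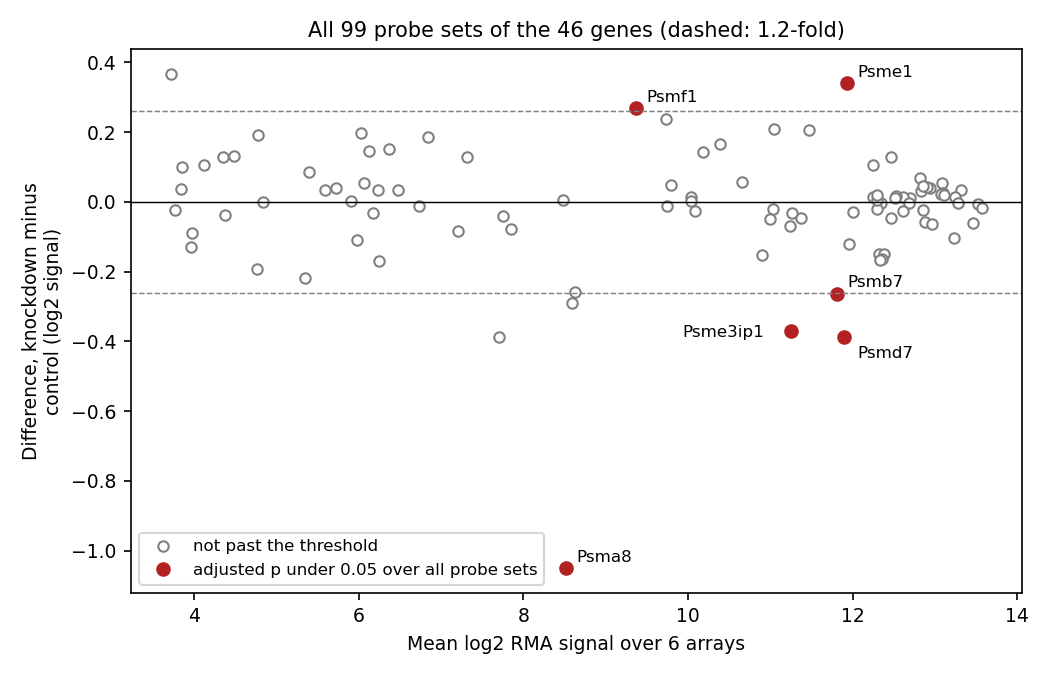
Difference, Panct1 knockdown minus Luciferase control, of each of the 99 probe sets against its mean log2 signal; filled points passed over all probe sets, and dashed lines mark a 1.2-fold change. Bright sets crowd around 0, apart from Psme1, Psmb7, Psme3ip1 and Psmd7.

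Genes around the proteasome were counted from lists taken from textbook knowledge, 84 genes of which 72 were measured, and 11 rose and 7 fell (25%, near the 24.2% of all genes). Among 16 measured partners, which include shuttle factors and proteasome-bound enzymes, 3 rose and 3 fell (37.5% called), with a median difference of 0.05. Ecpas, which tethers the cap to the core, rose by 0.75 (limma adjusted p = 0.00094). Zfand5, a ubiquitin-binding activator of degradation, rose by 0.35 (0.00425), but its call was lost with the mean of its probe sets (0.06, adjusted p = 0.526), with the set of largest SD (0.776) and without cross-hybridising sets (0.310). The other calls, named after their values were seen, were Ubqln2 upward (0.39) and Zfand2a (-0.48), Ubqln4 (-0.34) and Ube3c (-0.28) downward. Pomp, the maturation chaperone of the core, and the deubiquitinase Usp14 differed by 0.06 and 0.03 and did not pass, and Adrm1, a ubiquitin receptor, had no probe set of its own.

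Among 9 transcription factors known to act on proteasome genes, 2 rose and 2 fell, with a median difference of -0.03. That is 44.4% called, where 24.2% of all genes were. Bach1, a repressor at antioxidant response elements, rose by 1.04 (2.06-fold, limma adjusted p = 3.17e-05). Nfya, the DNA-binding subunit of NF-Y, fell by 0.45 (0.00789), a call lost only against a 1.2-fold minimum. Nfe2l1 itself had 10.61, 10.67 and 10.62 in knockdown arrays and 10.56, 10.53 and 10.59 in control arrays, a difference of 0.07 that did not pass (0.437). The other calls, named after their values were seen, were Maff (0.42) and Nfe2l2 (-0.23). The 6 genes with the antioxidant motif in their promoters differed by -0.10 (Psmb5), -0.06 (Psmb6), -0.03 (Psmd12), -0.003 (Psmc6), 0.05 (Psmd9) and 0.05 (Psme4). None of them passed, and Psma8, Psmb7 and Psmd7, the proteasome genes that fell, had no promoter to search.

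Genes of the VCP segregase, which extracts ubiquitinated proteins for the proteasome, gave 3 rises and 0 falls among 13, with a median of -0.04. Their share of calls, 23.1%, was near the 24.2% of all genes. Sel1l, an adaptor of degradation from the endoplasmic reticulum, rose by 0.38 (limma adjusted p = 0.0167), a call lost with the mean of its probe sets (0.01, adjusted p = 0.935) and without control replicate 1 (0.0628). Ubxn7, a VCP cofactor, rose by 0.33 (0.0117) and also lost its call without control replicate 1 (0.0522), and Faf2, named after its value was seen, rose by 0.27. Of 6 genes for ubiquitin and its activating enzymes 1 had a probe set of its own, Uba6, which differed by 0.06.

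Other large complexes were set beside the core and cap, with no test of a difference between them. The COP9 signalosome, a relative of the lid, had 1 rise and 1 fall among 10 genes, with 5 intervals inside 1.2-fold (50%). That is 20.0% called, where 24.2% of all genes were. The signalosome genes called were Cops7a (0.36, limma adjusted p = 0.00291) and Cops2 (-0.25, 0.0289). The call of Cops7a was lost only against a 1.2-fold minimum. That of Cops2 was lost when adjusted over all probe sets (0.0515) and without control replicate 2 (0.0798). It was also lost without any 1 knockdown replicate (0.0656, 0.0956 and 0.0532 without replicates 1, 2 and 3). The initiation factor eIF3, another relative of the lid, had 1 fall among 11 genes (9.09% called), with 9 intervals inside (81.8%). That gene, Eif3k, differed by -0.23 (0.0282) and lost its call when adjusted over all probe sets (0.0518). It also lost the call without control replicate 1 (0.0870) or 2 (0.0811) or knockdown replicate 1 (0.0726) or 2 (0.102). The chaperonin CCT, a ring of the cytosol, had 0 calls by limma and 0 at an unadjusted p under 0.05 among 9 genes, with 8 intervals inside (88.9%). Shares of intervals inside 1.2-fold as high as the 87.1% of the core and cap were thus found in CCT too.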

How the data were processed

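Total RNA from 3 Panct1 knockdown and 3 Luciferase control samples was hybridised to Affymetrix mouse arrays, and the authors deposited log2 signals made, per the submitters' processing notes, with GCOS 1.4 and RMA, which corrects background, quantile-normalises and summarises probes. Groups came from the array titles. The 64 control sets were left out of 45101 probe sets, leaving 45037. Of these 34945 had 1 gene symbol, 932 several and 9160 none in the platform annotation, with symbols checked against a RefSeq table of GRCm38.p6. The set with the highest mean over 6 arrays stood for each of 18193 genes.

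Differences were fitted with limma 3.58.1 (statmod 1.5.0, R 4.3.3; group the only term, two-sided, Benjamini-Hochberg over all genes or probe sets, threshold 0.05). The fit was tested on simulated data with 18193 genes: it recovered 22% of 50 genes changed by 0.3 on the log2 scale and 100% at 0.6, 1 and 2, with 7 calls among unchanged genes. With 50 genes changed at each size, the changed share was far below the 24.2% that passed in the real data. Its adjusted threshold was therefore stricter, and the 22% does not give the recovery in these data. Deviations of same-numbered arrays correlated at -0.26 to -0.10, which shows no pairing by number. Arrays of unlike number correlated at -0.11 to 0.28. The positive values were knockdown 1 with control 2 (0.273), knockdown 2 with control 3 (0.284) and knockdown 3 with control 1 (0.215). Whether another pairing links the samples was not tested.

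The members and lists were chosen with earlier results of these data known. Every gene of the name rule is named. Values on each array were given for those past the threshold, for Psmb5, Psmb6, Psmb7, Psmd14, Psmd4, Psme1, Psme2, Psme3, Psme4 and further genes chosen after their values were seen. From each other list the 2 smallest p past the threshold were taken, with Adrm1, Pomp, Usp14, Nfe2l1, Psmb8, Psmb9 and Psmb10. Alternatives changed the arrays, scaling, variance model, filters, probe set choice, family of tests and fold minimum. The number of arrays limits precision.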

Additional observations from a re-analysis of the deposited data

How the results depend on the processing

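Each count was recomputed under 17 other settings. As reported, 2 of the 46 genes of the name rule rose and 4 fell, Psme3ip1 among them, against 2355 and 2049 of all genes and 11 and 7 of the companion genes, and 2 proteasome probe sets rose and 4 fell. Leaving out 1 array gave 1 to 3 of the 46 genes higher and 3 to 4 lower, 1 to 3 probe sets higher and 3 to 6 lower, and 3 to 6 companion genes lower. Just 1 of the 46 was higher without control replicate 1, control replicate 3 or knockdown replicate 3. Against a 1.2-fold minimum, 0 of the 46 rose and 1 fell (Psma8), with 0 and 1 probe sets, 4 and 0 companion genes, and 841 and 438 of all genes. Zfand5, Ubxn7, Sel1l, Nfya, Cops7a, Cops2 and Eif3k were among the companion genes that lost their calls there. The replicate block, fitted although the samples share only a number, gave 1 of the 46 genes and 1 probe set higher and 3 companion genes lower, with adjusted p = 0.0502 for Psmb7, 0.0729 for Psmf1 and Cops2, and 0.0919 for Eif3k. Array weights gave 4 of the 46 genes higher and 12 companion genes lower, and an intensity trend with robust variance 4 and 11, with 4 probe sets higher and 9 lower. Companion genes lower numbered 11 without the dimmer probe sets and 4 when adjusted over all probe sets. One gene of the 46 was higher with the mean of all probe sets (1) or the set of largest SD (1), which also reversed Psmf1 to -0.01. Probe sets higher numbered 1 without cross-hybridising sets and 1 after repeated quantile normalisation. The causes were not tested. Of 781 values of these single genes over the settings, 752 stayed on the same side of the threshold, 15 lost a call, 13 gained one and 1, that of Psmf1, lost its call and turned its sign. Among the 752, 35 values below the threshold had the opposite sign, for example Psme3 at -0.26 with the set of largest SD. The median difference of the core and cap stayed between -0.03 and 0.02. Signal near background limits Psmb11 and 10 of the 99 probe sets.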
